A study of Mus musculus with 8 samples.

Results

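The Hox cluster genes are the mouse homeobox genes that lie in 4 chromosomal clusters. Members were taken as every protein-coding gene of the GENCODE M21 annotation whose symbol is Hox followed by a cluster letter and a paralog number, and this gave 39 genes of the 46078 gene identifiers counted. Hoxa held 11 members at chr6:52155590-52260880, Hoxb held 10 at chr11:96194316-96368256, Hoxc held 9 at chr15:102921103-103036852 and Hoxd held 9 at chr2:74668310-74765142, in build GRCm38. By paralog number, 8 members belonged to paralog groups 1 to 3, 15 to groups 4 to 8 and 16 to groups 9 to 13.

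RNA-seq was performed on 4 populations with 2 biological duplicates each, and all 4 were XY and of C57BL/6 background. The tcESCs are an embryonic stem cell (ESC) line carrying the tesco-cfp transgene, a fluorescent reporter driven by the testis enhancer of Sox9. The tc;Sf1ESCs are 1 picked clone of that line which also carries a transgene for mouse Sf1 (Nr5a1), so that the transgene and the clone cannot be told apart. Sertoli cell-like cells (SCLCs) were CFP-positive cells sorted on day 12 of the differentiation of tc;Sf1ESCs, which began with CHIR99021 and TTNPB, a retinoic acid receptor agonist, and went on with CHIR99021, BMP7 and FGF9, and todPGCLCs, primordial germ cell-like cells, were GFP-positive cells sorted on day 6 from testicular organoids. The todPGCLCs came from another ESC line, XY;Prdm1-gfp, which was not among the populations compared here, so that differentiation and line cannot be told apart in any contrast with them.

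Hox genes encode transcription factors that bind DNA through a homeodomain and give cells along the head-to-tail axis their positional identity. Within a cluster the genes are arranged in the order in which they are switched on, from anterior genes with low paralog numbers to posterior genes with high ones. In pluripotent cells the clusters are held silent by Polycomb proteins, and retinoic acid, Wnt and FGF signals open them as the embryonic axis forms.

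The homeobox, the part of the coding sequence for the homeodomain, is shown for 4 members whose levels separated the ESCs from SCLCs plainly. Hoxc12 and Hoxc13 led in the ESCs, and Hoxc9 and Hoxa10 stood out in SCLCs. Each is the coding strand of 180 bases within 1 exon of build GRCm38, and capitals mark the 4 codons at the core of the helix that reads the DNA. They lie at chr15:102938308-102938487 (Hoxc12, plus strand), chr15:102927210-102927389 (Hoxc13, plus), chr15:102983930-102984109 (Hoxc9, plus) and chr6:52232554-52232733 (Hoxa10, minus).
Hoxc12: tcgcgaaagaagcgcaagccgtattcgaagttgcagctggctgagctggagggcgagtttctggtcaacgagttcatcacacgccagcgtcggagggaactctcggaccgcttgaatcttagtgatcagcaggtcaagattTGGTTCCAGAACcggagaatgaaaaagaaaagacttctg
Hoxc13: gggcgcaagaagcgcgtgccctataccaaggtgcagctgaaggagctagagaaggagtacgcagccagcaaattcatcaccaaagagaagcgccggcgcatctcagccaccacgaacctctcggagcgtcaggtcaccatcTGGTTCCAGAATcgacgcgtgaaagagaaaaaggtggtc
Hoxc9: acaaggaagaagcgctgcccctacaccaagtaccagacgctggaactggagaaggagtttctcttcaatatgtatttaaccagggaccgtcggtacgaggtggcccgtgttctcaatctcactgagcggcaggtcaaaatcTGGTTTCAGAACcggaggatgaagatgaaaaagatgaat
Hoxa10: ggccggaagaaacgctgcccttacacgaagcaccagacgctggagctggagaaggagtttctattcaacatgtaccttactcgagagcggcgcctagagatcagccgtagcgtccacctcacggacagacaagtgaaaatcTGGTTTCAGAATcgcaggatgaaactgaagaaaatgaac

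Over all 39 homeoboxes, members of 1 paralog group shared a median of 80.56% of positions over 42 pairs, against 61.67% over the 172 pairs from 1 cluster but different paralog groups. Hoxc12 and Hoxc13, which are neighbours on the chromosome and both led in the ESCs, were alike at only 62.22%. At the length of the reads, members were nearly all distinct, since outside the pair Hoxd3 and Hoxd4 and the pair Hoxc5 and Hoxc10 no member shared more than 0.364% of its 50-base words with another member.

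The libraries held between 25411033 and 30680191 counts on genes, so that 3 counts, the upper limit that a count of 0 allows, corresponded to between 0.0978 and 0.118 CPM (counts scaled to a library total of 1000000). Most Hox transcripts were scarce in every population. On the scale of reads per kilobase of exon, scaled like CPM (RPKM), which allows genes of different length to be set side by side, the median member had 0.0430 in tcESCs, 0.0869 in tc;Sf1ESCs, 0.290 in SCLCs and 0.0498 in todPGCLCs, where the median of all 21519 protein-coding genes lay between 0.781 and 1.23. Single members stood higher, and Hoxc12 lay above 70.5% of these genes in tcESCs and 78.1% in tc;Sf1ESCs. Between 11 and 13 members reached 10 counts in the tcESC libraries, 16 or 17 in tc;Sf1ESCs, 25 or 26 in SCLCs and 10 to 13 in todPGCLCs.

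Summed over the 39 members, tcESCs had 35.7 ± 0.849 CPM (mean ± SD of 2 libraries throughout), whereas tc;Sf1ESCs had 51.3 ± 0.929, SCLCs 64.2 ± 6.85 and todPGCLCs 16.3 ± 4.36. The sum hid an exchange of members, because Hoxc12 and Hoxc13 alone gave 60.1% of these counts in tcESCs and 56.4% in tc;Sf1ESCs, but 3.56% in SCLCs and 6.10% in todPGCLCs. Without these members the sum was 14.3 ± 0.475 CPM in tcESCs, 22.4 ± 0.716 in tc;Sf1ESCs, 61.9 ± 6.47 in SCLCs and 15.4 ± 4.66 in todPGCLCs. Hence SCLCs stood above every other population once the pair was set aside, whereas tcESCs and todPGCLCs lay within the spread of each other.

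By level, most Hox transcript of the ESC populations came from the posterior part of the clusters, carried by Hoxc12 and Hoxc13, and the differentiated populations drew more on other parts. Of the summed RPKM, groups 9 to 13 gave 81.1 ± 0.0542% in tcESCs and 81.3 ± 0.0571% in tc;Sf1ESCs. With Hoxc12 and Hoxc13 left out, the order turned in the ESCs: the posterior groups gave 40.8 ± 0.0264% in tcESCs and 44.4 ± 2.62% in tc;Sf1ESCs, and the middle groups 48.2 ± 1.47% and 49.4 ± 1.40%. Over all 39 members, in SCLCs the middle groups 4 to 8 gave the largest share, 51.4 ± 0.769%, and the posterior groups 34.4 ± 0.103%. In todPGCLCs the anterior groups 1 to 3 gave 54.3 ± 2.68%, against 14.1 ± 0.872% in SCLCs, 3.53 ± 0.486% in tcESCs and 2.07 ± 0.319% in tc;Sf1ESCs. The summed level of these anterior groups differed between the differentiated populations by less than the spread of their replicates, at 8.67 ± 2.86 CPM in todPGCLCs and 9.55 ± 1.65 CPM in SCLCs, so that the larger share in todPGCLCs went with lower middle and posterior levels. With 2 samples a group an exact permutation test of such a share cannot reach p = 0.05, and the shares are given as a description. Within each class the replicates of both ESC populations lay close together, and the posterior shares of tcESCs and tc;Sf1ESCs were near each other too.

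**Figure D1:**
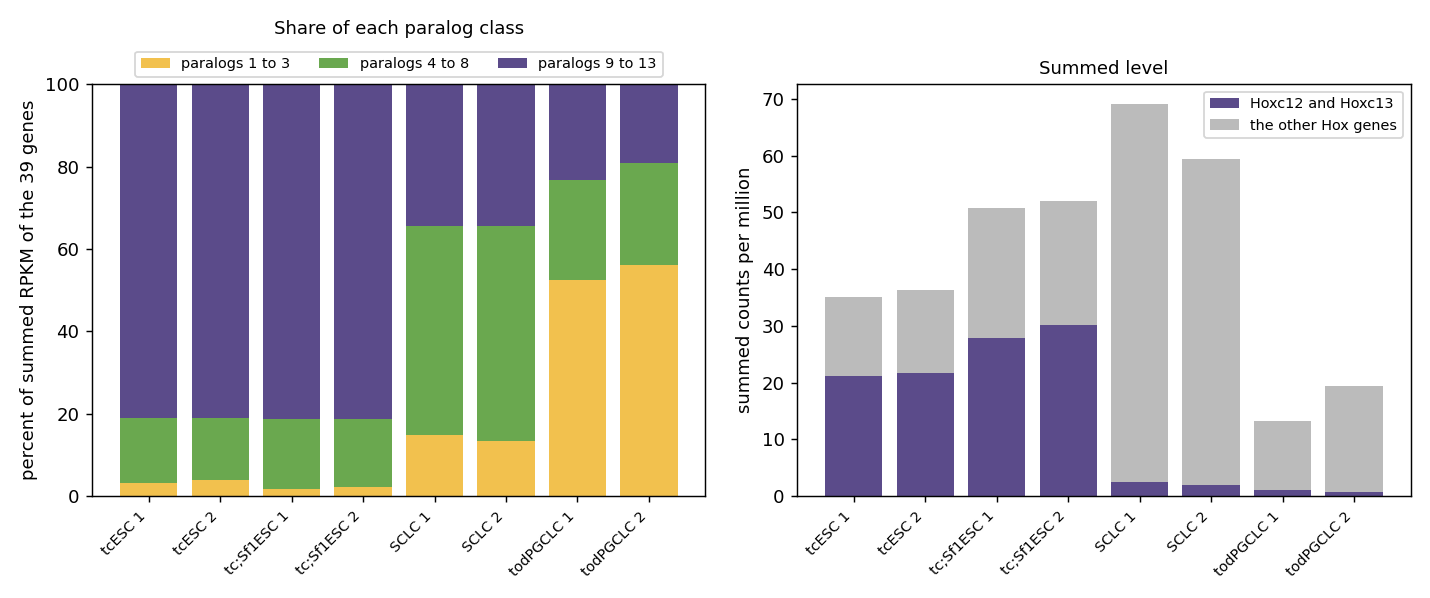
Stacked bars give, for each library, the share (%) of the summed RPKM of the 39 Hox genes from paralog groups 1 to 3, 4 to 8 and 9 to 13, and a second panel gives summed CPM split into Hoxc12 with Hoxc13 and the other members. Posterior groups fill about 81% of the ESC bars, the middle groups 51.4% of the SCLC bars on average and the anterior groups 54.3% of the todPGCLC bars.

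By RPKM, the highest members of tcESCs were Hoxc12 at 6.21 ± 0.520 and Hoxc13 at 6.13 ± 0.0659, which did not differ beyond their spread, followed by Hoxc4 at 1.69. In tc;Sf1ESCs Hoxc12 reached 10.6 ± 0.336 and Hoxc13 7.33 ± 0.809. Hoxb4 at 2.95 ± 0.0733 and Hoxc4 at 2.57 ± 0.0209 were among the highest in SCLCs. In todPGCLCs Hoxb1 had 0.739 ± 0.537, Hoxb4 0.570 and Hoxd1 0.556, which could not be separated from each other; these are values of named members and not a full order.

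The labelled identities were checked against marker lists before the Hox values were compared. Nr5a1, the Sf1 gene, had 1 and 0 counts in tcESCs, 52 and 30 in tc;Sf1ESCs and 341 and 535 in SCLCs, and whether the transgene's own transcripts entered the count is not given in the sources used here. Of 8 Sertoli markers, 6 were tested between SCLCs and tcESCs and 4 of them rose (Sox9, Gata4, Wt1, Nr5a1), but Amh (10 and 22 counts in SCLCs), Dhh (5 and 1) and Cst9 (6 and 4), which mark differentiated Sertoli cells, did not rise clear of their ESC counts. All 8 visceral endoderm markers also rose in SCLCs, to a summed 1684 CPM in replicate 1 and 3127 CPM in replicate 2 from 7.30 to 9.05 CPM in tcESCs. Markers of other lineages rose as well against tcESCs, where 24.3% of all genes tested rose. These were 4 of 4 tested of gut endoderm, 4 of 6 of lateral plate and 2 of 3 of paraxial mesoderm. Of neural markers 2 rose and 3 fell of 5 tested. Of intermediate mesoderm and kidney 4 rose and 2 fell (Foxd1, Eya1) of 6 tested, with a sum of 21.3 and 26.4 CPM against 24.7 and 25.5 in tcESCs, and of trophectoderm 3 rose and 1 fell (Eomes) of 5. Pluripotency markers still summed to 761 and 532 CPM in SCLCs, against 4311 and 4435 in tcESCs. The SCLC replicates differed 1.86-fold in visceral endoderm markers, while their summed Hox levels stood at a ratio of 0.860 (replicate 2 to replicate 1), and the part of cells of these other lineages in the Hox values was not tested. In todPGCLCs 4 of 6 germ cell markers rose (Prdm1, Tfap2c, Dppa3, Dnd1) against tcESCs, where 18.1% of all genes tested rose. So did 4 of 7 tested Sertoli markers (Sox9, Wt1, Nr5a1, Dmrt1) and 5 of 8 visceral endoderm markers. Of gut endoderm 4 of 4 rose, of lateral plate 4 of 6, of paraxial mesoderm 3 of 4 and of trophectoderm 2 of 5 tested. Of intermediate mesoderm and kidney 3 rose and 2 fell of 7 tested, and of neural markers 2 rose and 2 fell of 5. Of 7 pluripotency markers 3 fell (Pou5f1, Klf4, Tdgf1). Wt1 and Dmrt1 were higher in todPGCLCs than in SCLCs, and the part of somatic cells in the todPGCLC values was not tested. In such bulk libraries fewer cells of a type and less RNA per cell cannot be told apart.

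Among anterior members, Hoxb1, which sets the identity of a single hindbrain segment, had no count in any of the 4 ESC libraries, 15 and 17 in SCLCs and 23 and 69 in todPGCLCs. Hoxd1 had 3 and 6 counts in tcESCs, none in tc;Sf1ESCs, 8 and 3 in SCLCs and 29 and 27 in todPGCLCs. Hoxb1 and Hoxd1 were thus highest in todPGCLCs, although the todPGCLC replicates lay far apart in Hoxb1. Hoxa3, which acts in the pharyngeal arches, followed another pattern, with 6 and 0 counts in tcESCs, 2 and 5 in tc;Sf1ESCs, 48 and 38 in SCLCs and 3 and 13 in todPGCLCs. Hoxb3 was counted only in the differentiated cells, at 13 and 9 in SCLCs and 3 and 11 in todPGCLCs.

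Middle members were mostly highest in SCLCs. Hoxb4, known for expanding blood stem cells, had 19 and 32 counts in tcESCs, 37 and 51 in tc;Sf1ESCs, 197 and 224 in SCLCs and 37 and 42 in todPGCLCs. Hoxa5, which is needed for lung development, had 5 and 5 counts in tcESCs, 5 and 10 in tc;Sf1ESCs, 84 and 62 in SCLCs and 3 and 7 in todPGCLCs. Hoxc5 had 2 and 3, 12 and 7, 82 and 58, and 1 and 1 counts in tcESCs, tc;Sf1ESCs, SCLCs and todPGCLCs, respectively. For all of them the SCLC counts were clear of every other library. Hoxc4 differed, since its 110 and 133 counts in tcESCs, 146 and 161 in tc;Sf1ESCs and 176 and 191 in SCLCs were of one order and only the 10 and 17 counts in todPGCLCs stood apart.

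The other middle members were also mostly highest in SCLCs, although Hoxc6 overlapped between SCLCs and tc;Sf1ESCs when scaled by depth. Hoxc6 had 1 and 1 counts in tcESCs, 18 and 13 in tc;Sf1ESCs, 42 and 20 in SCLCs and none in todPGCLCs. Hoxa7 had 18 and 18 counts in tcESCs, 32 and 26 in tc;Sf1ESCs, 94 and 133 in SCLCs and 5 and 7 in todPGCLCs. Hoxb7 had 2 and 2, 7 and 6, 39 and 43, and 0 and 10 counts in the same order of populations. Hoxa7 and Hoxb7 are paralogs on different chromosomes, and both were highest in SCLCs. Hoxc8, which marks brachial motor neurons, had 3 and 7 counts in tcESCs, 5 and 4 in tc;Sf1ESCs, 39 and 29 in SCLCs and 1 and 6 in todPGCLCs. Hoxd8 had 14 and 16, 25 and 25, 103 and 98, and 23 and 15 counts. Hoxa4 and Hoxa6 stayed at or below 15 and 18 counts, their highest values in SCLCs, and Hoxa6 had no count in todPGCLCs.

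Posterior members split in their behaviour. Hoxc9, a determinant of thoracic motor neurons, had 6 and 2 counts in tcESCs, 5 and 11 in tc;Sf1ESCs, 132 and 128 in SCLCs and 0 and 1 in todPGCLCs. Hoxa10, which patterns the lumbar spine and the uterus, had 3 and 5 counts in tcESCs, 17 and 16 in tc;Sf1ESCs, 128 and 121 in SCLCs and 1 and 3 in todPGCLCs. Both were near absent from todPGCLCs and far higher in SCLCs than in either ESC population. Hoxc12 ran the other way, with 153 and 208 counts in tcESCs, 290 and 296 in tc;Sf1ESCs, 3 and 7 in SCLCs and 1 and 0 in todPGCLCs. Hoxc13, a hair follicle regulator, had 386 and 459 counts in tcESCs, 431 and 538 in tc;Sf1ESCs, 65 and 52 in SCLCs and 30 and 19 in todPGCLCs. Hoxd13, which shapes the digits, had 57 and 69, 50 and 50, 20 and 20, and 21 and 12 counts. These 3 members were higher in all ESC libraries than in any differentiated library.

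Of the remaining posterior members, Hoxa9, active in blood progenitors, had 2 and 1 counts in tcESCs, 9 and 10 in tc;Sf1ESCs, 21 and 18 in SCLCs and 1 and 9 in todPGCLCs. Hoxb9 had 31 and 28, 56 and 42, 18 and 18, and 10 and 26 counts, so that it was highest in tc;Sf1ESCs. Hoxd9 had 16 and 25, 50 and 46, 71 and 69, and 17 and 20 counts. The tc;Sf1ESCs lay between tcESCs and SCLCs in Hoxa9 and Hoxd9. Hoxc10 had 11 and 11 counts in tcESCs, 23 and 24 in tc;Sf1ESCs, 86 and 70 in SCLCs and 1 and 2 in todPGCLCs. Hoxb13, a prostate regulator, had 4 and 15, 26 and 32, 36 and 27, and 1 and 1 counts. Hoxa13, which acts in limbs and the genital tubercle, had 5 and 6, 6 and 2, 18 and 29, and 3 and 8 counts. Hoxa11, a kidney and uterus gene, was seen mainly in SCLCs, at 27 and 20 counts against at most 5 elsewhere, and Hoxc11 was low and overlapping between ESCs and SCLCs, with 4 and 12, 18 and 7, and 3 and 9 counts, and 0 and 2 in todPGCLCs.

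The other 10 members (Hoxa2, Hoxb2, Hoxb5, Hoxb6, Hoxb8, Hoxd3, Hoxd4, Hoxd10, Hoxd11 and Hoxd12) never exceeded 8 counts in a library and passed no filter, so that none was tested. By summed counts some were higher in SCLCs than in tcESCs, such as Hoxa2 with a ratio of 13.1 (1.97 to 557) and Hoxd4 with 9.08 (1.26 to 398), with intervals too wide to size the difference. Hoxb2, at 0 in tcESCs, was at least 1.48-fold higher in SCLCs. In todPGCLCs against tcESCs the ratio of Hoxa2 was 10.4 (1.48 to 450), and in SCLCs against tc;Sf1ESCs that of Hoxb8 was 11.6 (1.71 to 495). Hoxd11, which the study used as a marker of kidney, had 1 and 2 counts in tcESCs, 2 and 8 in tc;Sf1ESCs, 3 and 1 in SCLCs and 1 and 0 in todPGCLCs. Hoxd3 and Hoxd4 are among those that counting may have lowered, since 62.3% and 52.3% of their exon bases are shared with other genes on the same strand.

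**Figure D2:**
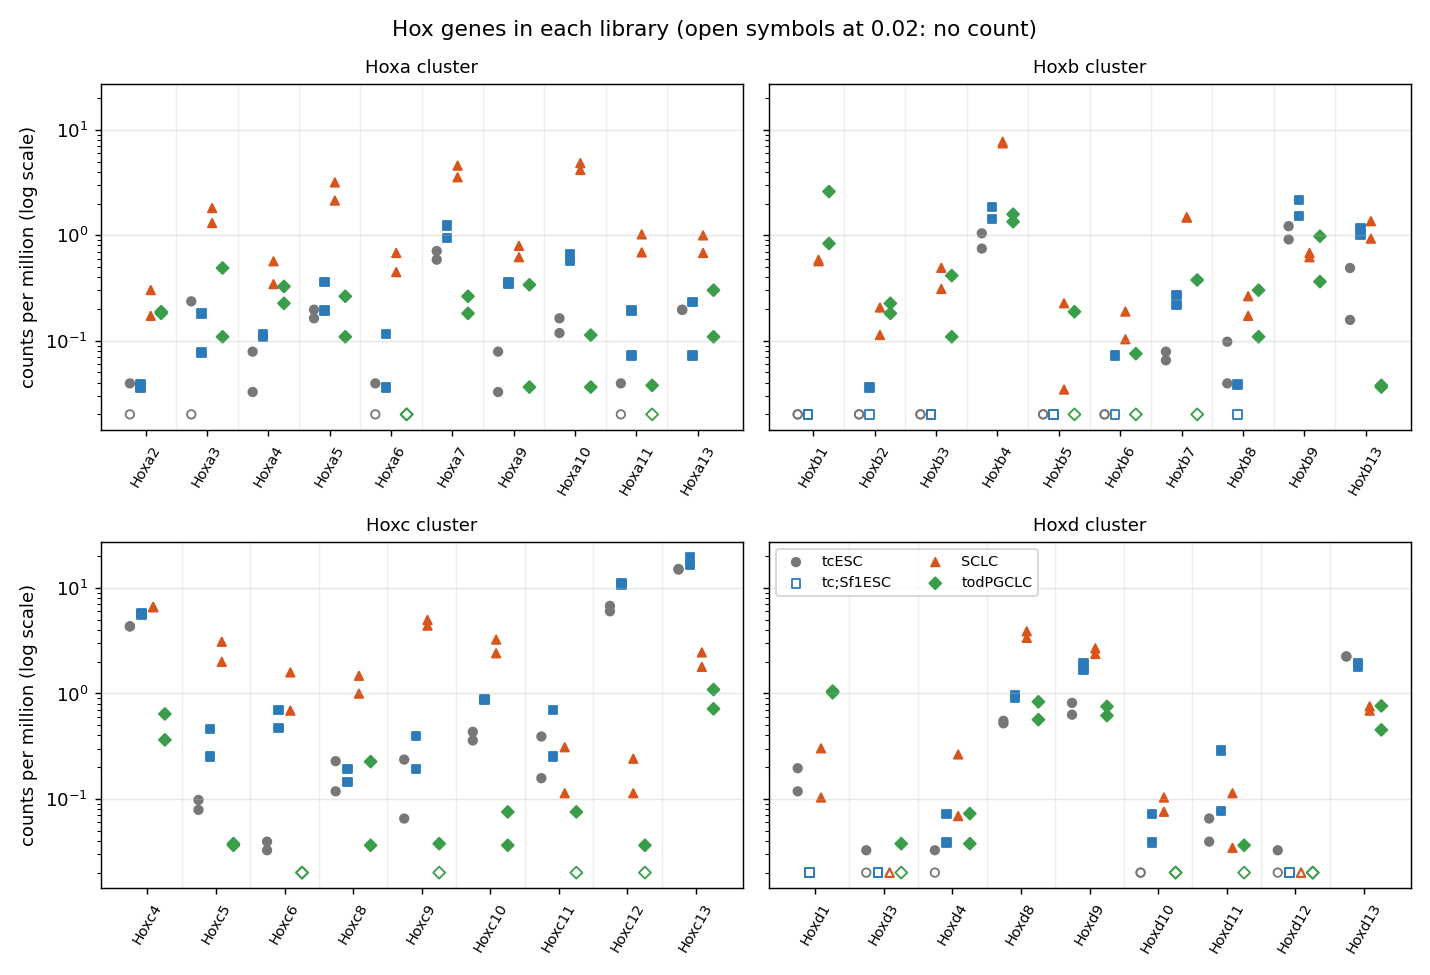
Points give the CPM of Hox genes in each of the 8 libraries on a log axis, with 1 panel per cluster, genes ordered by paralog number and colours for the 4 populations; open symbols at the foot mark libraries with no count. SCLC points lie above the others over most of groups 3 to 10, and the order turns at Hoxc12, Hoxc13 and Hoxd13, where the ESC points lie on top.

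The first comparison set the tc;Sf1ESC clone against its parental line before differentiation. Some Hox transcripts were higher in tc;Sf1ESCs. Of tested members, 1 of 9 in groups 4 to 8 and 5 of 11 in groups 9 to 13 were called higher, whereas both tc;Sf1ESC libraries were higher in 9 of 15 and 11 of 16 of all members of these groups. Of 39 members, 22 passed the filter of a mean above 10 counts and 6 rose by more than 2-fold at an adjusted p under 0.05 (edgeR's quasi-likelihood test, Benjamini-Hochberg adjustment), while none fell; of all 16481 genes tested, 11.7% were called, 6.04% as higher and 5.63% as lower. Hoxa9 and Hoxc6, among others, passed the filter through other groups, and of the 11 members with a mean above 10 counts in tcESCs alone 2 rose and 9 did not pass. In DESeq2 none fell either. At an unadjusted p under 0.05 edgeR had 14 members higher and 0 lower. The share of all genes at that limit was not counted, so these counts cannot be set against a background. Over all 39 members, both tc;Sf1ESC libraries exceeded both tcESC libraries in 20 and fell below them in 3, where 28.7% and 29.6% of all genes with a count did so.

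Hoxa10 rose by a log2 fold change of 2.09 ± 0.40 (SE; adjusted p = 0.00771), Hoxd9 by 1.31 ± 0.27 (adjusted p = 0.0109), Hoxb13 by 1.69 ± 0.50 (adjusted p = 0.0378) and Hoxc10 by 1.16 ± 0.35 (adjusted p = 0.0407). Hoxa9 and Hoxc6 were also called, but rested on 3 and 2 counts over both tcESC libraries, and the ratios of summed counts were 6.63 (95% interval 1.95 to 35.0) for Hoxa9 and 16.2 (4.13 to 140) for Hoxc6, both covering counting error only. Hoxc12 was higher by 0.78 ± 0.18 on the log2 scale (adjusted p = 0.0159) and Hoxb4 by 0.87 ± 0.27 (adjusted p = 0.0457), both short of 2-fold. No change passed the test in Hoxc13 (0.27, adjusted p = 0.226) or Hoxd13 (-0.25, adjusted p = 0.428). The size of the Hoxb13 difference ran from 1.15 without tcESC replicate 1 to 2.75 without tcESC replicate 2. None of the 6 calls was made without tcESC replicate 1 or without tc;Sf1ESC replicate 1, 2 were made without tcESC replicate 2 (Hoxa10, Hoxb13) or without tc;Sf1ESC replicate 2 (Hoxa10, Hoxc6), and DESeq2 called 3 (Hoxa10, Hoxc6, Hoxd9). The 769 tested genes of chromosome 6, where Hoxa lies, had a median log2 fold change of -0.32 in this contrast, a shift whose part in the Hoxa values was not tested.

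The second comparison asked how the clusters changed as ESCs became SCLCs. Against tcESCs, members from every cluster rose, while Hoxc12 and Hoxc13, the highest in ESCs, fell. Of 22 members tested, 17 rose and 3 fell; 24.3% of all genes tested rose and 18.3% fell. By paralog position 8 of 9 tested members rose in groups 4 to 8, and 7 rose and 3 fell of 11 in groups 9 to 13. By cluster 7 of 7 tested Hoxa members rose, 3 of 4 Hoxb, 5 of 8 Hoxc (2 fell) and 2 of 3 Hoxd (1 fell). Members such as Hoxa3 and Hoxc5 passed the filter only through their counts in SCLCs, where they are high, and are no support for a general rise, so the 11 members with a mean above 10 counts in tcESCs alone are given too, of which 6 rose, 3 fell and 2 did not pass. Both SCLC libraries exceeded both tcESC libraries in 30 of 39 members and fell below them in 4, where 33.9% and 32.4% of all genes with a count did so.

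Large rises were seen in the middle and posterior groups, and those of Hoxc9, Hoxa10 and Hoxc5 rest on single-digit counts in tcESCs. Hoxc9 rose by 5.05 ± 0.47 on the log2 scale (adjusted p = 5.65e-05), Hoxa10 by 5.0 ± 0.32 (adjusted p = 9.23e-06) and Hoxc5 by 4.83 ± 0.50 (adjusted p = 9.99e-05). Hoxb4 rose by 3.12 ± 0.25 (adjusted p = 2.47e-05) and Hoxd8 by 2.81 ± 0.26 (adjusted p = 5.17e-05). Hoxa5, Hoxa7, Hoxb7, Hoxc8, Hoxc10, Hoxa3, Hoxd9, Hoxa13 and Hoxb13 rose by between 1.82 (Hoxb13) and 4.35 (Hoxb7). The sizes of several depended on 1 tcESC library: without replicate 1 the difference of Hoxc9 was 6.13 and that of Hoxb13 1.27, and without replicate 2 they were 4.33 and 2.87. Hoxa3, whose 6 tcESC counts all came from replicate 1, stood at 2.75 without replicate 2 and had no tcESC count without replicate 1. Hoxa9 and Hoxc6, with 3 and 2 counts in tcESCs, had ratios of summed counts of 13.1 (4.17 to 66.3) and 31.3 (8.30 to 264). Hoxb1 and Hoxb3, at 0 in tcESCs and not tested, were at least 5.33-fold and at least 3.71-fold higher, set against 3 counts in each tcESC library. Without tcESC replicate 2 the adjusted p of Hoxa13 was 0.0546, and without tcESC replicate 1 that of Hoxb13 was 0.058. Chromosome 6 again had a median log2 fold change below 0 (-0.30 over 769 genes), against the direction of the Hoxa members.

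Hoxc12 fell by 5.06 ± 0.29 on the log2 scale (adjusted p = 5.54e-06), Hoxc13 fell by 2.77 ± 0.18 (adjusted p = 1.07e-05) and Hoxd13 fell by 1.57 ± 0.25 (adjusted p = 0.000889). Without SCLC replicate 2 the difference of Hoxc12 was -5.71. The members that fell all lie at the posterior end of their clusters, where Hoxa13 and Hoxb13 rose. Hoxc4, with a difference of 0.67 ± 0.15 (adjusted p = 0.00554), stayed under 2-fold, and Hoxb9, at -0.64 ± 0.34 (adjusted p = 0.128), did not pass.

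Set against tc;Sf1ESCs, the line from which SCLCs were made, 14 members rose and 4 fell of 22, where 24.1% of all genes tested rose and 18.1% fell. Among the 14 members with a mean above 10 counts in tc;Sf1ESCs alone, 6 rose, 4 fell and 4 did not pass. This contrast shares the SCLC libraries with the one before. Hoxc9 rose by 4.01 ± 0.42 on the log2 scale (adjusted p = 0.000104), Hoxa5 by 3.27 ± 0.40 (adjusted p = 0.00024) and Hoxa10 by 2.91 ± 0.26 (adjusted p = 4.55e-05). Hoxc12 fell by 5.84 ± 0.28 (adjusted p = 2.57e-06), Hoxc13 fell by 3.04 ± 0.18 (adjusted p = 7.03e-06), Hoxd13 fell by 1.32 ± 0.25 (adjusted p = 0.00237) and Hoxb9 fell by 1.44 ± 0.33 (adjusted p = 0.00525). The calls of Hoxd13 and Hoxb9 were each lost in 1 of 14 alternatives. Hoxb13 (0.13, adjusted p = 0.801), Hoxd9 (0.54, adjusted p = 0.0783), Hoxc6 (1.0, adjusted p = 0.0931) and Hoxc4 (0.26) did not pass. Hoxa9 was called at 1.03 ± 0.39 (adjusted p = 0.0461), a call lost in 10 of 11 alternatives (adjusted p up to 0.546), among them leaving out either tc;Sf1ESC replicate. Without tc;Sf1ESC replicate 2 the difference of Hoxc9 was 4.61, and without SCLC replicate 2 that of Hoxc12 was -6.50.

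**Figure D3:**
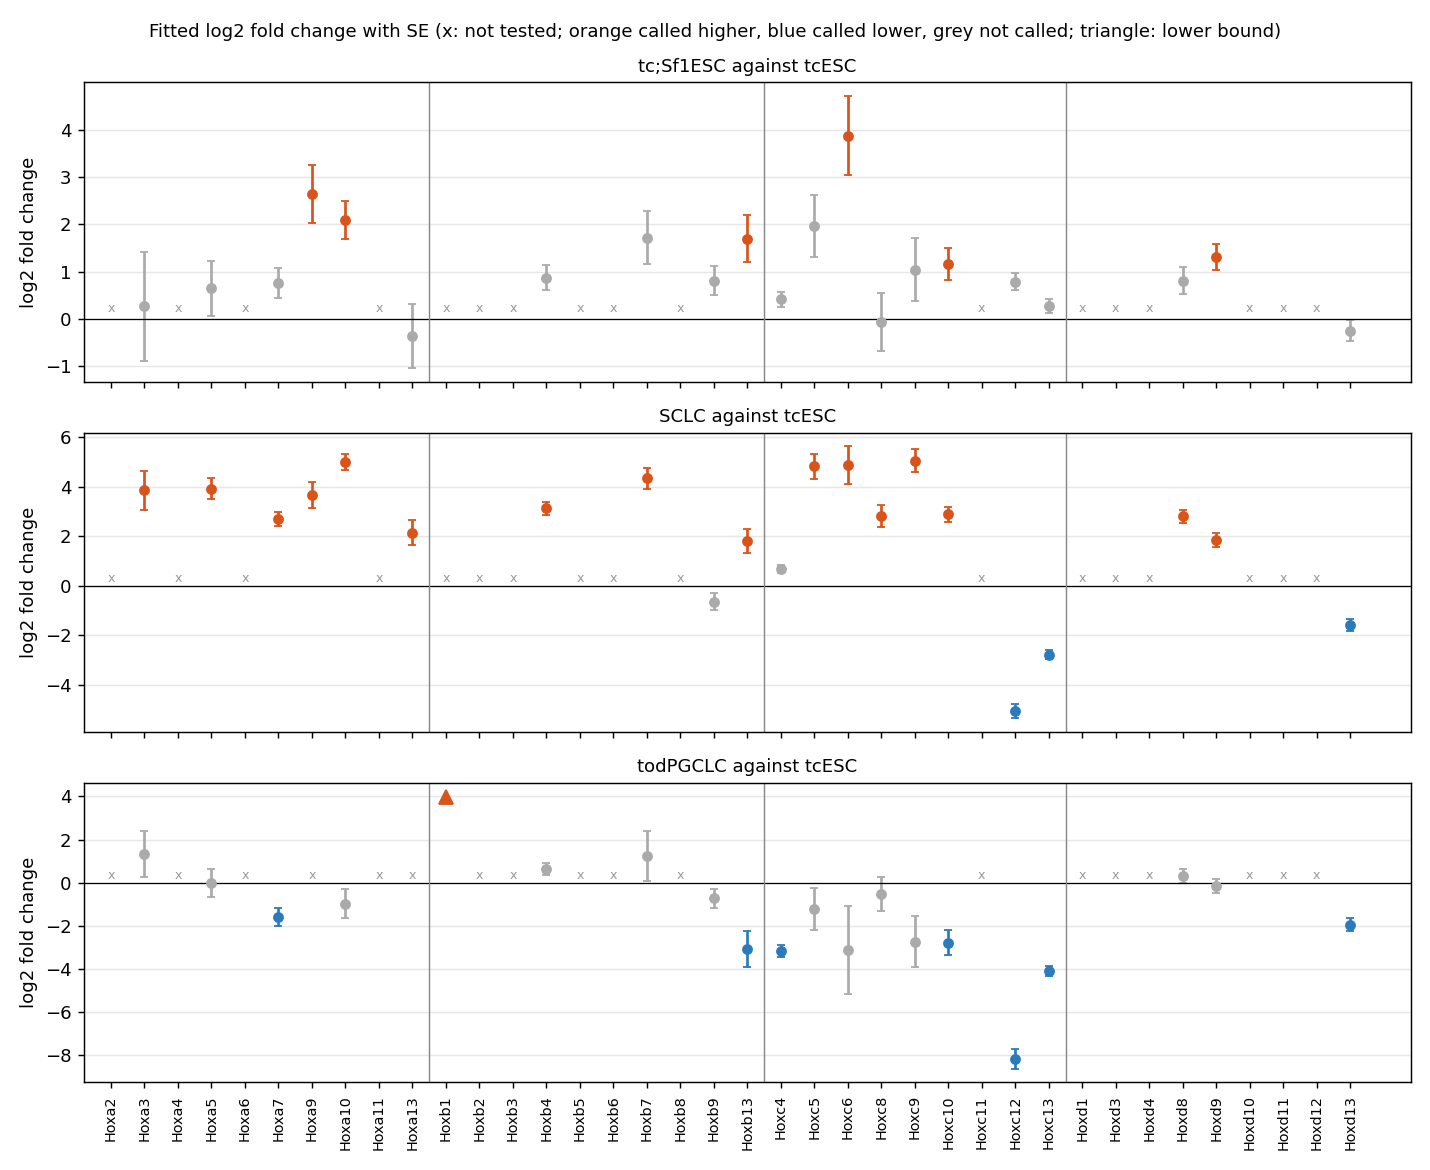
Points give the log2 fold change of Hox genes with its SE for tc;Sf1ESCs, SCLCs and todPGCLCs, each against the same 2 tcESC libraries; crosses mark members that were not tested and a triangle gives the lower bound for Hoxb1. In SCLCs most points are called above 0 and only Hoxc12, Hoxc13 and Hoxd13 below, and in todPGCLCs the Hoxb1 triangle lies above 0 and 7 members are called below.

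The third comparison set todPGCLCs against tcESCs. The anterior gene Hoxb1 rose and 7 members of groups 4 to 13 fell, 4 of them in Hoxc. Hoxb1 passed the filter only through its counts in the differentiated populations, where it is high. Its call is therefore no support for a general anterior rise. In numbers, 2 members rose and 7 fell of 21 tested, where 18.1% of 16707 genes rose and 11.2% fell. By paralog position 2 of 9 tested members fell in groups 4 to 8 and 5 of 9 fell in groups 9 to 13. Among the 11 members with a mean above 10 counts in tcESCs alone, 1 rose, 6 fell and 4 did not pass. Both todPGCLC libraries exceeded both tcESC libraries in 11 of 39 members and fell below them in 13, where 37.7% and 27.2% of all genes with a count did so. Every anterior member with non-overlapping libraries, 6 of 8, was higher, and all 9 posterior ones were lower.

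Hoxb1, without a count in tcESCs, was at least 15.9-fold higher (adjusted p = 0.00148), and without todPGCLC replicate 2, which held 69 counts of Hoxb1, it fell under the filter and was not tested. Hoxd1, too low for the filter, had a ratio of summed counts of 6.45 (3.17 to 14.8). Hoxc12 had 1 count in all and a ratio of 0.00287 (7.25e-05 to 0.0161), and Hoxc13 fell by 4.12 ± 0.24 on the log2 scale (adjusted p = 2.31e-06). Hoxc4 fell by 3.18 ± 0.26 (adjusted p = 1.52e-05), Hoxd13 fell by 1.95 ± 0.30 (adjusted p = 0.000546) and Hoxa7 fell by 1.59 ± 0.42 (adjusted p = 0.00961). Hoxc10 and Hoxb13, with 3 and 2 counts in todPGCLCs, had ratios of 0.141 (0.0271 to 0.471) and 0.109 (0.0123 to 0.452). Hoxb4 (0.62, adjusted p = 0.0803), Hoxd8 (0.32, adjusted p = 0.436) and Hoxd9 (-0.16, adjusted p = 0.678) did not pass. The call of Hoxa7 was lost without todPGCLC replicate 1 (adjusted p = 0.0626), and that of Hoxb13 without tcESC replicate 2 (0.11) or either todPGCLC replicate (adjusted p = 0.0611 and 0.057). The 1339 tested genes of chromosome 11, where Hoxb lies, had a median log2 fold change of 0.51 in this contrast, and those of chromosome 6 one of -0.29, and the part of these shifts in the Hox values was not tested.

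The fourth comparison, between the somatic and the germ cell-like population, shares its libraries with those above. SCLCs exceeded todPGCLCs over the middle and posterior groups, whereas both SCLC libraries lay below both todPGCLC libraries in Hoxb1 and Hoxd1. Of 21 members tested, 17 were higher in SCLCs and 0 lower in edgeR's quasi-likelihood test, where 19.5% of all genes tested were higher and 18.5% lower; DESeq2 also had 0 lower, and at an unadjusted p under 0.05 edgeR had 1 lower, Hoxb1. All 9 tested members of groups 4 to 8 were higher and 7 of 9 in groups 9 to 13. Among the 9 members with a mean above 10 counts in todPGCLCs alone, 5 were higher and 4 did not pass. Both SCLC libraries exceeded both todPGCLC libraries in 25 of 39 members and fell below them in 2, Hoxb1 and Hoxd1, where 28.6% and 36.3% of all genes with a count did so.

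Hoxa10 was higher in SCLCs by 5.97 ± 0.41 on the log2 scale (adjusted p = 2.94e-06), Hoxa7 by 4.30 ± 0.35 (adjusted p = 7.84e-06), Hoxa5 by 3.94 ± 0.46 (adjusted p = 7.13e-05) and Hoxc4 by 3.84 ± 0.26 (adjusted p = 2.47e-06). Hoxb4 and Hoxd8 were higher by 2.50 ± 0.24 (adjusted p = 2.02e-05) and 2.50 ± 0.28 (adjusted p = 5.24e-05). Left out one at a time, todPGCLC replicate 1 moved the difference of Hoxa10 to 5.38, and replicate 2 moved it to 6.90 and that of Hoxa5 to 4.67. For members with 1 to 3 counts in todPGCLCs the ratios of summed counts were 253 for Hoxc9 (45 to 1e+04), 68.1 for Hoxc5 (18.5 to 568), 50.6 for Hoxc10 (17 to 248), 30.7 for Hoxb13 (8.14 to 259) and 9.73 for Hoxc12 (1.38 to 422). Hoxc6 and the untested Hoxa6, at 0 in todPGCLCs, were at least 10.2-fold and at least 5.07-fold higher. Hoxb1 (-1.43 ± 0.58, adjusted p = 0.064), Hoxb9 (0.09) and Hoxd13 (0.37) did not pass. Hoxd1, not tested, had a ratio of 0.191 (0.0903 to 0.369). The call of Hoxc12 was lost without SCLC replicate 2 (adjusted p = 0.0949) or todPGCLC replicate 2 (adjusted p = 0.0675), and that of Hoxa3 without todPGCLC replicate 1 (adjusted p = 0.0841).

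Some values may depend on how overlapping genes were counted. On the same strand, Hoxd3 and Hoxd4 overlap each other and a read-through gene model, Hoxa2 shares 15% and Hoxd11 10.8% of exon bases with such models, and Hoxc10 shares 8.70% with Hoxc5. On either strand, Hoxb3 shares 52.9%, Hoxa11 35.0%, Hoxb2 27.3%, Hoxa3 27.1%, Hoxa7 20.4% and Hoxa4 16.0% with other genes, mostly antisense RNAs. The libraries were stranded, but the strand setting of the counting is not given in the sources used here, and without it reads of a gene and its antisense partner cannot be told apart.

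Besides the members, 46 other annotated genes lie inside the clusters, most of them non-coding, and only 3 passed the filter. The long non-coding RNA gene Gm53, between Hoxb13 and Hoxb9 at chr11:96251105-96264868, had 785 and 780 counts in tcESCs, 1290 and 1386 in tc;Sf1ESCs, 60 and 77 in SCLCs and 78 and 73 in todPGCLCs. Its counts were high in all ESC libraries and low in all differentiated ones. Gm53 fell by 3.45 ± 0.15 on the log2 scale in SCLCs (adjusted p = 1.44e-06) and fell by 3.40 ± 0.14 in todPGCLCs (adjusted p = 5.61e-07), each against tcESCs, and was higher by 0.84 ± 0.12 in tc;Sf1ESCs, under 2-fold. The locus of Mir196a-1 begins 295 bases after the end of Gm53, at chr11:96265164-96265265, and moved likewise, with 32 and 22, 43 and 69, 2 and 1, and 9 and 3 counts. Mir196a-1 fell by 2.19 ± 0.55 in todPGCLCs (adjusted p = 0.00769), and in SCLCs, with 3 counts in all, the ratio of summed counts was 0.0561. These counts come from polyadenylated RNA over the hairpin and do not measure the mature miRNA.

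Long non-coding RNA genes of the Hoxa cluster were seen at low counts. Hotairm1 had 2 and 1 counts in tcESCs, 3 and 6 in tc;Sf1ESCs, 10 and 23 in SCLCs and 3 and 7 in todPGCLCs. Hoxaas2 had none in ESCs, 7 and 10 in SCLCs and 8 and 11 in todPGCLCs. Hoxa11os, antisense to Hoxa11, had 10 and 16 counts in SCLCs against at most 1 elsewhere. Hotair, in the Hoxc cluster, had 3 and 0, 5 and 6, 0 and 1, and 0 and 0 counts.

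The miRNAs encoded within the clusters are shown because miR-196 and miR-10 are known to target Hox transcripts and because the Mir196a-1 locus changed. The mature sequences are from RefSeq (GRCm38.p6), and capitals mark the seed, bases 2 to 8. Mir196a-1 (chromosome 11) and Mir196a-2 (chromosome 15) give the same miR-196a-5p, and miR-196b-5p comes from the Hoxa cluster; miR-10a-5p (chr11:96317186-96317208) and miR-10b-5p (chr2:74726074-74726096) lie in Hoxb and Hoxd.
miR-196a-5p: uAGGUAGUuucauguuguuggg
miR-196b-5p: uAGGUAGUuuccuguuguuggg
miR-10a-5p: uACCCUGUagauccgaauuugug
miR-10b-5p: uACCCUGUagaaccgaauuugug

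A match to the miR-196 seed stood in the 3′ untranslated region (UTR) of 8 of 39 members, 20.5% (Hoxa4, Hoxa5, Hoxa7, Hoxa9, Hoxb1, Hoxb6, Hoxb7 and Hoxc8), where 5.51% of 20336 genes have one. The median 3′ UTR had 960 bases in members and 801 in all genes. A match to the miR-10 seed stood in 4 of 39, 10.3% (among them Hoxa3, Hoxb3 and Hoxd1), where 11.2% of all genes have one. Only sites with a full match to the miR-196 seed were scored for further pairing with miR-196a-5p, so members without one were not ranked. The 22 bases opposite miR-196a-5p are shown for the 3 members with the most paired bases among those scored, 14 of 22 each. Capitals mark the bases opposite the seed. The sites lie at chr6:52215210-52215231 (Hoxa7, minus strand), chr6:52223900-52223921 (Hoxa9, minus) and chr11:96289784-96289805 (Hoxb7, plus), build GRCm38.
Hoxa7 site: actactagccctaaACTACCTa
Hoxa9 site: caaaaggaaagaaaACTACCTt
Hoxb7 site: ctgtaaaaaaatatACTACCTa

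The Mir196a-1 counts do not measure the mature miRNA. Whether they went with the levels of the members that hold a site was not tested. A match of letters is a description and was not tested as regulation in these cells.

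The changes of the clusters were set beside the genes on either side. Of 40 flanking genes, 38 were tested and in SCLCs against tcESCs 3 rose (Jazf1, Creb5 and Copz2) and 8 fell (Evx1, Cbx3, Skap2, Atp5g1, Calcoco2, Snx11, Cbx1 and Nfe2), where 42.7% of all genes tested were called in either direction. Of these, Evx1, a homeobox gene next to Hoxa13, had 122 and 131 counts in tcESCs, 66 and 70 in tc;Sf1ESCs, 0 and 3 in SCLCs and 8 and 14 in todPGCLCs. Evx1 thus fell where its neighbour Hoxa13 rose, and its ratio of summed counts in SCLCs to tcESCs was 0.0120.

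**Figure D4:**
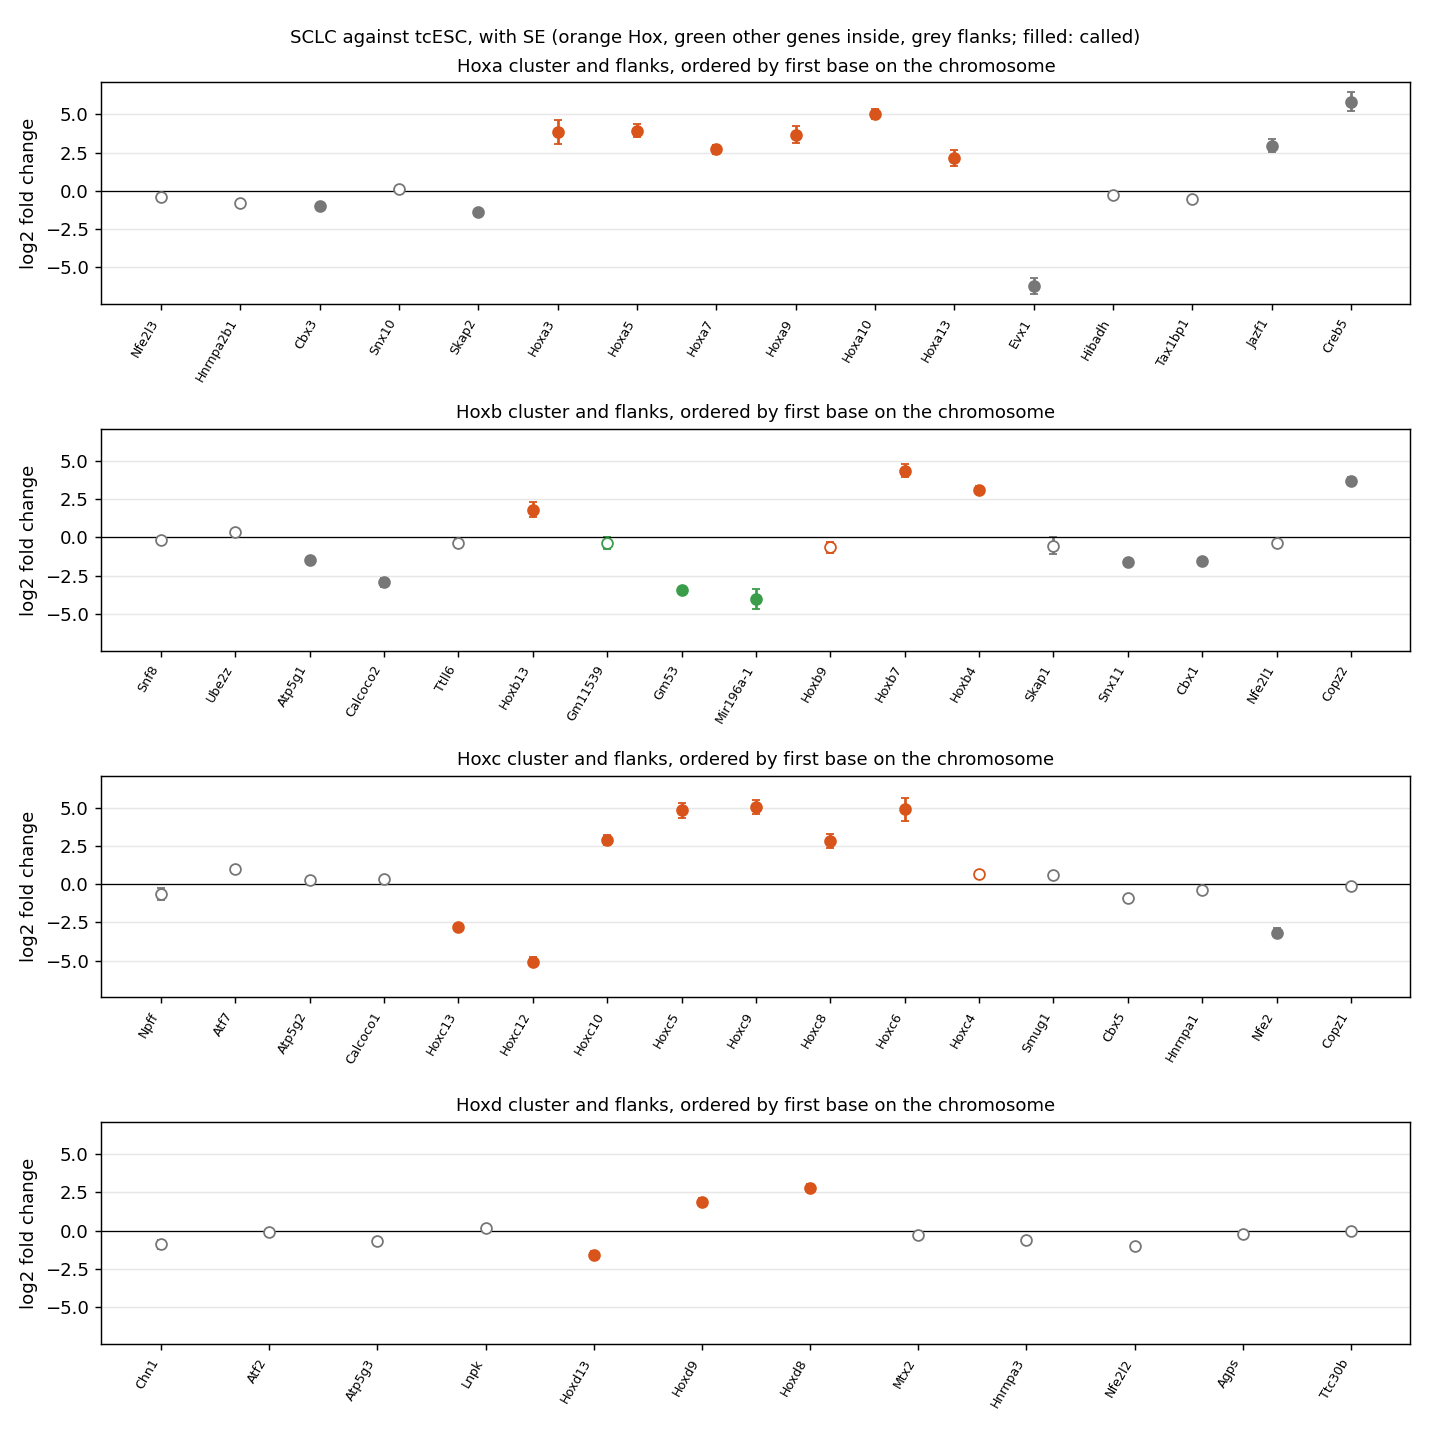
Points give the log2 fold change of SCLCs against tcESCs for Hox genes, other genes inside each cluster and genes on either side, in order of their first base and with 1 panel per cluster. Only tested genes are drawn, and tested members were 4 of 10 in Hoxb and 3 of 9 in Hoxd. Most Hox members drawn stand above 0, whereas Hoxb9, Hoxc12, Hoxc13, Hoxd13, Gm53 and Mir196a-1 lie below it and most flanking genes lie near 0.

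Hox proteins bind DNA together with the TALE homeodomain cofactors of the Pbx, Meis and Pknox families. Of 9 such genes tested, 4 rose and 2 fell in SCLCs against tcESCs, 4 rose and 1 fell in todPGCLCs, and 2 rose in tc;Sf1ESCs, where the other 7 did not pass. Of all genes tested, 24.3% rose and 18.3% fell in the first of these contrasts, 18.1% and 11.2% in the second, and 6.04% rose in the third, so that the share of cofactors that fell in SCLCs was near that of all genes. Meis1 had 12 and 13 counts in tcESCs, 16 and 40 in tc;Sf1ESCs, 499 and 391 in SCLCs and 173 and 168 in todPGCLCs, and rose by 5.22 ± 0.40 on the log2 scale in SCLCs (adjusted p = 2.12e-05). Meis2 and Meis3 also rose in SCLCs against tcESCs. Meis2 was already higher in tc;Sf1ESCs, and its difference between SCLCs and tc;Sf1ESCs was not called (0.60 ± 0.13, under 2-fold). Pknox2 had 542 and 645 counts in tcESCs, 556 and 636 in tc;Sf1ESCs, 28 and 34 in SCLCs and 100 and 141 in todPGCLCs, and fell by 4.18 ± 0.14 in SCLCs (adjusted p = 6.19e-07). SCLCs thus had more transcript of the Meis genes together with that of middle Hox genes, and todPGCLCs had Meis1 without a rise of those.

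Cdx and Evx proteins are homeodomain factors of the posterior embryo, and Cdx proteins switch on middle Hox genes. Of 8 Cdx, ParaHox and Evx genes 3 were tested. Cdx1 had 679 and 843 counts in tcESCs, 1087 and 1090 in tc;Sf1ESCs, 34 and 27 in SCLCs and 82 and 109 in todPGCLCs, and fell by 4.55 ± 0.15 in SCLCs (adjusted p = 5.61e-07). Cdx2 had 57 and 50, 137 and 124, 107 and 306, and 11 and 63 counts, and rose by 1.99 ± 0.45 in SCLCs against tcESCs (adjusted p = 0.00561), but its SCLC libraries overlapped with those of tc;Sf1ESCs and the difference from them was not called (0.63 ± 0.42, adjusted p = 0.208). Cdx1 was thus higher in all ESC libraries than in any differentiated library. The relation of Cdx1 or Cdx2 to the Hox levels was not tested.

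A list of 22 genes covered signals and transcription factors upstream of Hox onset, including genes that degrade retinoic acid. In SCLCs against tcESCs 19 were tested. Of these 7 rose (Rarb, Cyp26a1, Cyp26b1, Cyp26c1, Dhrs3, Wnt5a and Gdf11) and 5 fell (Rarg, Aldh1a2, Crabp1, Wnt3a and T). In todPGCLCs 12 of 21 rose and the other 9 did not pass. All genes tested rose in 24.3% and fell in 18.3% of cases in SCLCs, and rose in 18.1% in todPGCLCs. The retinoic acid receptor gene Rarb, itself a retinoic acid target, had 5 and 4 counts in tcESCs, 3 and 2 in tc;Sf1ESCs, 238 and 183 in SCLCs and 28 and 56 in todPGCLCs. Rarb rose by 5.59 ± 0.36 in SCLCs (adjusted p = 9.61e-06) and by 3.17 ± 0.53 in todPGCLCs (adjusted p = 0.000858). Cyp26a1, which degrades retinoic acid, had 13 and 18, 4 and 4, 4448 and 4217, and 200 and 847 counts. Cyp26a1 rose by 8.20 ± 0.14 in SCLCs (adjusted p = 5.94e-08) and by 5.06 ± 0.78 in todPGCLCs (adjusted p = 0.000551). Both genes were thus highest in SCLCs. T, the Brachyury gene of early mesoderm, had 37 and 47 counts in tcESCs, 227 and 286 in tc;Sf1ESCs, 2 and 7 in SCLCs and 286 and 716 in todPGCLCs.

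Polycomb and trithorax proteins keep Hox clusters off or on. Of 24 such genes, all tested, 4 rose and 7 fell in SCLCs against tcESCs, and 2 rose and 2 fell in todPGCLCs against tcESCs. Of all genes tested, 42.7% and 29.4% were called in either direction in these contrasts. In tc;Sf1ESCs against tcESCs 1 fell, Phf19, where 5.63% of all genes tested fell. Ezh1 and Ezh2, the alternative methyltransferases of Polycomb complex PRC2, moved in opposite directions in SCLCs against tcESCs. Ezh1 had 739 and 975 counts in tcESCs, 1364 and 1465 in tc;Sf1ESCs, 4754 and 4318 in SCLCs and 4157 and 3493 in todPGCLCs, and rose by 2.49 ± 0.10 in SCLCs (adjusted p = 1.41e-06). Ezh2 had 7872 and 9688, 5536 and 5823, 4010 and 3854, and 5369 and 5605 counts, and fell by 1.08 ± 0.07 in SCLCs against tcESCs (adjusted p = 1.33e-05). Against tc;Sf1ESCs the difference of Ezh2 was -0.53 ± 0.07 (adjusted p = 0.00049), under 2-fold.

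Promoter sequences were looked at for letters that Hox regulators read. RefSeq (GRCm38.p6) windows of 250 bases before to 50 after the gene start were at hand for 22 members, as 24 windows. TATAAA, the TATA box, stood in 4 of 24 windows (Hoxa10, Hoxb8, Hoxd4 and Hoxd13), where 13.6% of 32851 windows of all genes hold it on either strand. TTTATG, a Cdx site, stood in 5 (11.9% of all windows) and TGATNNAT, a Pbx-Hox site whose letters can overlap TTTATG, in 4 (Hoxa2, Hoxb1, Hoxb8 and Hoxd11; 8.85% of all windows). The retinoic acid response elements DR2 and DR5 stood in no Hox window, and in 0.268% and 0.0974% of all windows. Hox windows held a median of 14.5 CpG dinucleotides, against 7.0 in all windows. The windows of Hoxd13, which fell in both differentiated populations, and Hoxb1, which was counted only in them, are shown for the 240 bases that end 11 bases before the RefSeq start, both on the plus strand, at chr2:74667975-74668214 and chr11:96365508-96365747. Capitals mark TATAAA on both strands in Hoxd13 and TGATNNAT in Hoxb1.
Hoxd13: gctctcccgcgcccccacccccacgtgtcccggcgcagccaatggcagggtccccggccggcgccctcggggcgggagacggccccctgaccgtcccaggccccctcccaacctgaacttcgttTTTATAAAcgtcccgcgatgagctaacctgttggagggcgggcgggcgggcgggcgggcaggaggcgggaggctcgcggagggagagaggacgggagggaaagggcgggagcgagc
Hoxb1: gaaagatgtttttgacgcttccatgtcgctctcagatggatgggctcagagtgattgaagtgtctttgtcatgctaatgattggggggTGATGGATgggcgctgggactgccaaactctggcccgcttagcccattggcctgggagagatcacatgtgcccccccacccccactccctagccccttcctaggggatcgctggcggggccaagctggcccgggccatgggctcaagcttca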

How the data were processed

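RNA of the 4 populations was sequenced from polyA-selected, strand-specific paired-end libraries. The authors trimmed reads (Trim Galore), aligned them to GRCm38 (STAR 2.4.0) and counted reads per gene (HTSeq); Picard and DESeq2 are also named in the submitters' processing notes. The deposited values are raw counts per gene and library. Lines that name no gene (no feature, ambiguous and the like) were left out of totals and tests; ambiguous pairs were 4.61 to 4.93% of genic and ambiguous counts. GENCODE M21 named 45143 of 46078 identifiers.

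Counts were tested with edgeR 4.0.16 (R 4.3.3; TMM, quasi-likelihood test) over all genes with a mean above 10 counts in the libraries fitted: 6 libraries for contrasts among ESC populations and SCLCs, which share 1 estimate of the spread, and all 8 libraries for contrasts with todPGCLCs. A call needed more than 2-fold and an adjusted p under 0.05. The test was also run on simulated data, and the outcome of that run is not given here. Members at 0 to 3 counts over a group are given by the ratio of summed counts with an exact 95% interval or by a bound against 3 counts in each library of the group; these cover counting error only. RPKM used the union exon length. Python 3.11.15, pandas 2.3.3 and Biopython 1.88 handled sequences. Text named the members called in any contrast or with at least 10 counts in a library, and counts the rest; values of some genes are not reported here or drawn by name, but they enter counts and sums. The members and lists were chosen with earlier results of these data known. The labels name biological duplicates, and p-values rest on the spread within such pairs of samples, pooled over the populations fitted. Alternatives were DESeq2 1.42.0, other scalings, filters, thresholds and library subsets, a replicate block and leaving out each library.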

Additional observations from a re-analysis of the deposited data

How the results depend on the processing

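The number of Hox genes called moved most between the ESC populations. There 6 members were called, against 3 in DESeq2, 1 at an adjusted p under 0.01, 0 when fold changes were tested against 2-fold (glmTreat) and 0 to 2 when 1 library was left out, and each of the 6 lost its call under some alternative outside leaving out a library. With every gene of at least 1 count tested, todPGCLCs against tcESCs had 14 members called in place of 9. When 1 library was left out, 17 to 20 members were called in SCLCs against tcESCs (20 with all), 15 to 18 in SCLCs against tc;Sf1ESCs (18 with all), 8 to 10 in todPGCLCs against tcESCs (9 with all) and 13 to 17 in SCLCs against todPGCLCs (17 with all); fewer samples then also leave some members under the filter. Outside leaving out a library, called members kept their call in 196 of 198 values in SCLCs against tcESCs, 168 of 178 in SCLCs against tc;Sf1ESCs, 76 of 79 in todPGCLCs against tcESCs, 147 of 152 in SCLCs against todPGCLCs and 42 of 57 between the ESC populations, and no called member reversed under any alternative run. The cause of the lost calls was not tested. With 2 samples a group and most members under 1 CPM, small differences are beyond these data.

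Replicate numbers are shared between populations, but samples of the same number did not deviate together (correlation of deviations -0.0259 in SCLCs against tcESCs and 0.0624 at most), so they share only a number. With the replicate number as a block, 6, 20, 17, 9 and 18 Hox genes were called in the 5 contrasts, in the order tc;Sf1ESCs against tcESCs, SCLCs against tcESCs, SCLCs against tc;Sf1ESCs, todPGCLCs against tcESCs and SCLCs against todPGCLCs.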
